A study of Mus musculus with 4 samples.

Results

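The unfolded protein response and the integrated stress response were described here through 34 genes, chosen by name and grouped by role: 3 sensors, 3 transcription factors, 11 chaperones and cochaperones, 3 protein disulfide isomerases, 7 genes of endoplasmic reticulum (ER)-associated degradation and 7 targets of ATF4 and CHOP. All 34 were found among the 23284 gene symbols of the series. The RNA came from stromal cells of mouse large intestine, sorted alive as podoplanin-positive and free of CD45 (leukocytes), CD31 (endothelium) and EpCAM (epithelium). The 4 groups came from a pair of strains: BALB/c, as wild type and under a Rag2 knockout label, and C57BL/6J, as wild type and under an IL-10 knockout label. Each group had 1 library. The labels used here state neither the age nor the number of the animals, nor how the knockout alleles were built. A single library per group leaves no replicate error and allows no test between groups, so "higher" and "lower" describe these libraries only.

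Proteins that leave a cell are folded in the ER, where chaperones and disulfide isomerases hold them until they are mature. When unfolded proteins pile up, the sensors IRE1 (encoded by Ern1), PERK (Eif2ak3) and ATF6 raise the folding and degradation machinery, IRE1 by splicing Xbp1 mRNA and ATF6 by releasing its own transcription factor part. PERK phosphorylates the initiation factor eIF2, as do sensors of amino acid shortage, haem and double-stranded RNA. That phosphorylation lowers general translation and raises translation of ATF4, which induces genes of amino acid supply. Colonic fibroblasts secrete large amounts of collagen and matrix and depend on this machinery, as do plasma cells and goblet cells.

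Values are FPKM, fragment numbers scaled by transcript length and by library size, which allows a rough comparison of levels between genes. Differences are log2 ratios of FPKM plus 1 between a pair of libraries, and a gene was compared when it had at least 1 FPKM in either. The depth, estimated from the steps between low values, was between 8400000 and 9960000 fragments. Fibroblast transcripts were abundant in every library: Dcn, a matrix proteoglycan, had between 5544 and 6520 FPKM and Col3a1, a collagen chain, between 1558 and 2150. Il10 was higher under the IL-10 knockout label (129.9 FPKM) than in its wild type (3.33), and Rag2 was at 0.712 FPKM under the Rag2 knockout label and listed at 0 in its wild type. Whole-gene values do not show whether a deleted part is present, so neither gene checks its label, and both libraries are called by their labels below. The C57BL/6J libraries also differed in sex-linked transcripts (Ddx3y, on the Y chromosome, 16.9 FPKM in wild type and 0.0269 in the IL-10-labelled library), so sex and genotype cannot be told apart there. Xist, from the inactive X chromosome, had 0.0509 and 0.105 FPKM in the BALB/c pair, 23.02 in wild-type C57BL/6J cells, which held Ddx3y too, and 44.9 under the IL-10 label, so sex and strain cannot be told apart between the wild types either. The housekeeping gene Gapdh had at most 0.349 FPKM in any library, so a value near 0 in these files need not mean a silent gene.

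The members spanned a wide range of levels. Hspa5, which encodes BiP, the main ER chaperone, and Ppp1r15a, which encodes GADD34, the subunit that reverses eIF2 phosphorylation, stood highest, with mean FPKM of 1081 and 933 over the 4 libraries. Atf4 and Calr, the calcium-binding chaperone calreticulin, followed with 522 and 473. At the other end were Chac1, a glutathione-degrading enzyme (0.912), Phgdh, the first enzyme of serine synthesis (1.82), Trib3, a pseudokinase that restrains ATF4 (2.15), and Derl3 (3.98). Levels of Atf4 and Ppp1r15a exceeded more than 99.5% of the genes that are not small RNAs in both wild types, while those of Asns and Psat1, targets of ATF4, lay at the 57.2 and 56.9 percentile in C57BL/6J wild type.

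**Figure D1:**
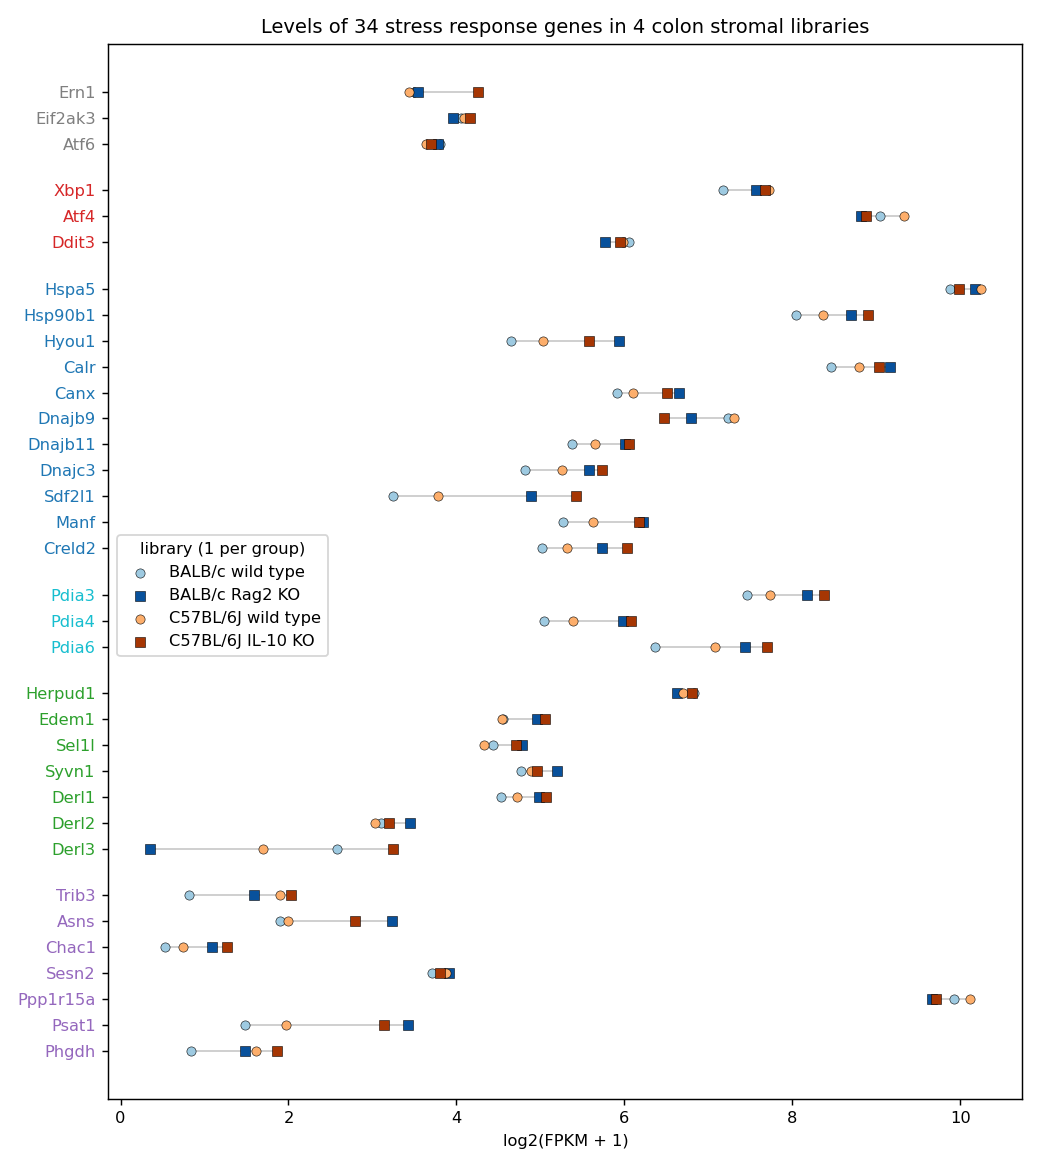
Level of each of the 34 genes, as log2 of FPKM plus 1 (horizontal axis), with 1 point per library and gene names coloured by role. For 13 of the 14 chaperones and isomerases the lowest point is BALB/c wild type, whereas Derl3 is lowest in the BALB/c Rag2 library. The share of all genes lowest in each library was not counted.

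Folding genes were higher in both libraries labelled as knockouts than in the wild type of the same strain. Of the 14 chaperones and isomerases, 12 were higher in both, 1 was lower in both (Dnajb9) and 1 went opposite ways (Hspa5). Among all genes compared in both, 32.5% were higher in both and 34.3% lower in both. The median log2 ratio of the 14 was 0.55 for IL-10 and 0.73 for Rag2, beside medians of 0.00 over the 12790 and 12336 genes compared. At a threshold of 1.5-fold (0.58 on the log2 scale), 5 of 14 were higher and 1 lower in the IL-10 comparison, where 16.5% of all genes were higher and 10.9% lower. In the Rag2 comparison 12 of 14 were higher and 0 lower, where 10.3% of all genes were higher and 7.65% lower. These counts depend on the scaling: with library sums rescaled without small RNAs, which moved the median of all genes by -0.13 in each comparison, 1 of the 14 (Sdf2l1, 1.51) was at least 1.5-fold higher for IL-10 and 7 for Rag2, with medians of 0.41 and 0.59. The share of all genes past 1.5-fold was not computed under that scaling.

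Sdf2l1 (chromosome 16, 17130138 to 17132383 in GRCm38/mm10), a small ER protein that works with BiP cochaperones, stood furthest apart. It had 8.46 FPKM in wild-type BALB/c cells, 28.5 under the Rag2 label, 12.7 in wild-type C57BL/6J cells and 41.9 under the IL-10 label. Both wild types lay below both knockout-labelled libraries, an order whose share among all genes was not counted. The log2 ratios were 1.65 and 1.64, about 3.13-fold and 3.12-fold. About 75, 246, 98 and 313 fragments stand behind these values. The log2 ratio of the FPKM with nothing added was 1.72 for IL-10 and 1.75 for Rag2, with 95% intervals of 1.40 to 2.07 and 1.37 to 2.14 that cover counting error only.

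Hyou1 (chromosome 9, 44379490 to 44392369), a large ER chaperone that recharges BiP with ATP, had 24.1 FPKM in wild-type BALB/c cells, 60.4 under the Rag2 label, 31.6 in wild-type C57BL/6J cells and 46.7 under the IL-10 label. The log2 ratio was 1.29 in the Rag2 comparison and 0.55 in the IL-10 comparison, the widest gap between them among the folding genes. Manf, a secreted ER stress protein that stabilises BiP complexes, had 37.5, 73.5, 48.2 and 71.3 FPKM in the same order of libraries (log2 ratios of 0.55 for IL-10 and 0.95 for Rag2). For Creld2, an ER disulfide isomerase-like protein, the values were 31.6, 52.4, 38.9 and 64.3 FPKM, and both log2 ratios were 0.71.

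The disulfide isomerases form and rearrange the cystine bridges of secreted proteins. As deposited, all 3 that are members were at least 1.5-fold higher in both comparisons, where 6.49% of genes compared in both were. With library sums rescaled without small RNAs, 0 of the 3 passed 1.5-fold for IL-10 (Pdia3 0.50, Pdia4 0.56, Pdia6 0.48) and 2 of the 3 for Rag2 (Pdia3 0.57, Pdia4 0.79, Pdia6 0.94). For these rescaled counts the share of all genes was not computed. Pdia6 (chromosome 12, 17266589 to 17284785) had 81.1 FPKM in wild-type BALB/c cells, 172.5 under the Rag2 label, 134 in wild-type C57BL/6J cells and 206 under the IL-10 label. Its log2 ratios were 0.62 in the IL-10 and 1.08 in the Rag2 comparison. Pdia4 had 32.1, 62.1, 40.8 and 66.7 FPKM in the same order (0.69 and 0.93). Pdia3, which folds glycoproteins together with calnexin and calreticulin, had 175, 287, 212 and 331 FPKM (0.64 and 0.71).

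The lectin chaperones, the ER form of HSP90 and the remaining BiP cochaperones were higher in both comparisons, and none of them reached 1.5-fold for IL-10. Hsp90b1, the ER form of HSP90, had 263 FPKM in wild-type BALB/c cells, 414 under the Rag2 label, 329 in wild-type C57BL/6J cells and 478.5 under the IL-10 label (log2 ratios of 0.54 for IL-10 and 0.66 for Rag2). Calr had log2 ratios of 0.24 and 0.70 in the same order of comparisons, and Canx, the membrane-bound calnexin, 0.40 and 0.74. For the BiP cochaperones Dnajb11 and Dnajc3 the ratios were 0.41 and 0.64, and 0.48 and 0.77.

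A pair of BiP-related genes did not share this direction. Hspa5 (chromosome 2, 34772090 to 34776529) had 941 FPKM in wild-type BALB/c cells, 1158 under the Rag2 label, 1214 in wild-type C57BL/6J cells and 1009 under the IL-10 label. The knockout-labelled values lay between those of the wild types, with log2 ratios of -0.27 in the IL-10 and 0.299 in the Rag2 comparison. Dnajb9, which encodes ERdj4, the cochaperone that keeps IRE1 inactive with BiP, was lower in both libraries labelled as knockouts: 149.9 against 110 FPKM in the BALB/c pair (-0.44), and 157.5 against 87.7 in the C57BL/6J pair (-0.84).

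Epithelial and pan-leukocyte markers, of cell types outside the gate, were higher in both libraries labelled as knockouts. Endothelial markers, also outside the gate, had median log2 ratios of -0.32 for IL-10 and -0.08 for Rag2. The 17 epithelial markers, all found, summed to 40.6 FPKM in wild-type BALB/c cells, 192 under the Rag2 label, 111 in wild-type C57BL/6J cells and 513 under the IL-10 label, with none listed at 0, and 15 of the 17 were lowest in BALB/c wild type. Agr2, a disulfide isomerase of goblet cells, had 1.27, 30.3, 10.98 and 122.5 FPKM in the same order, and Lgals4, an epithelial galectin, 15.3, 32.3, 23.4 and 75.2. The 12 pan-leukocyte markers summed to 216, 370, 125 and 1382 FPKM, none at 0, with Srgn at 71.0, 151, 42.8 and 588 and Cd52 at 40.4, 64.7, 33.3 and 260. All 12 were lowest in C57BL/6J wild type. How many of all genes were lowest in each wild type was not counted. The part of these cell types in the folding gene values was not tested, and in bulk RNA fewer cells of a type and less RNA per cell cannot be told apart.

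**Figure D2:**
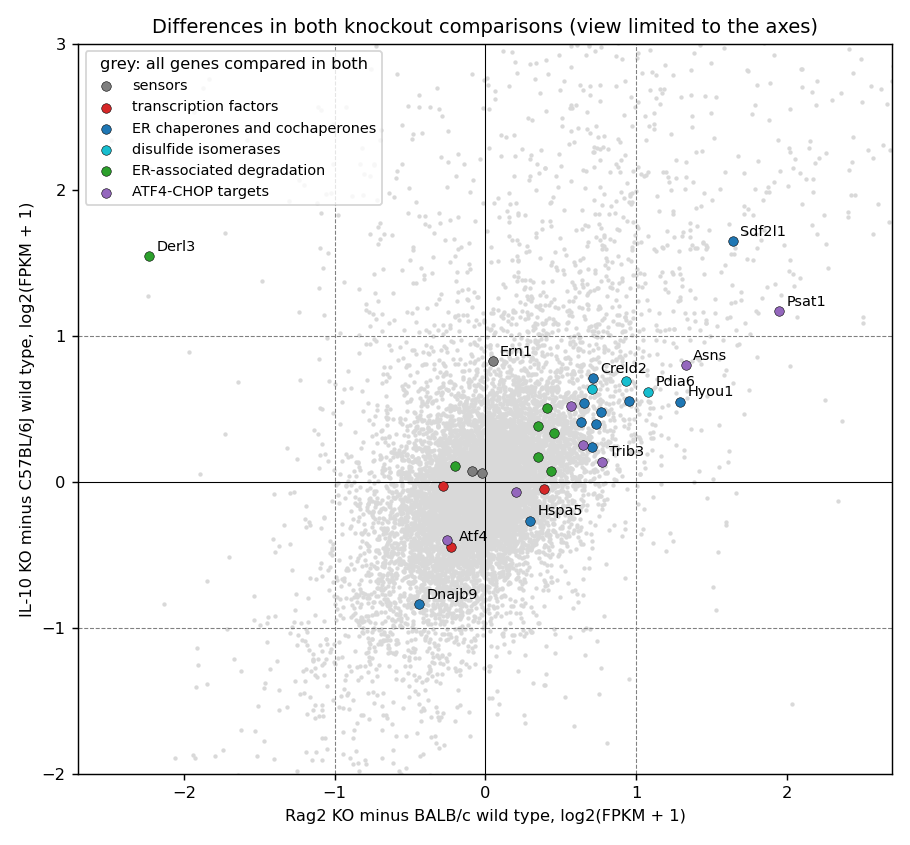
Log2 ratio of each member in the Rag2 comparison (horizontal axis) and in the IL-10 comparison (vertical axis), coloured by role, over all 12048 genes compared in both (grey, those within the axes). Dashed lines mark 2-fold. Sdf2l1 and Psat1 lie beyond 2-fold in both comparisons, Derl3 sits alone at upper left, and Dnajb9 and Atf4 lie at lower left.

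Some promoters of the members, most of them of folding genes, carry letters that other promoters rarely hold. The ER stress response element (ERSE), CCAAT and CCACG with 9 bases of any kind between them, on either strand, is bound by ATF6 together with the CCAAT factor NF-Y. Promoter windows of RefSeq (GRCm38.p6, 250 bases before to 50 after the transcription start) were found for 30 of the 34 members. There was no window for Hyou1, Manf, Derl1 or Atf6. An exact ERSE lay in the window of 9 of the 30 members, against 0.119% of all 32851 windows: Hspa5, Hsp90b1, Calr, Canx, Dnajc3, Creld2, Pdia6, Syvn1 and Derl3. The related ERSE-II, ATTGG and CCACG with 1 base of any kind between them, lay in those of Dnajb11 and Herpud1 (0.0365% of all windows). With 1 of the 10 fixed ERSE letters different, 6 further members matched, among them Pdia3 and Pdia4, against 1.40% of all windows. The members were chosen by name as genes of this response, so these shares are no independent result.

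The ATF4 type of element, TGATGNAA, lay in the windows of Asns, Chac1, Trib3 and Herpud1, against 3.97% of all windows. No window of a member held TGACGTGG, a site for spliced XBP1 (0.676% of all windows), and that of Ppp1r15a held the cyclic AMP response element TGACGTCA (1.79%). ERSE and ERSE-II both hold CCACG, and none of the matches found here overlapped another. The 9 members with an exact ERSE did not move as 1 group. Without Derl3, the other 8 had log2 ratios between -0.27 and 0.71 in the IL-10 comparison and between 0.299 and 1.08 in the Rag2 comparison. Derl3, with the same element, had 1.55 and -2.23, and Sdf2l1, the folding gene furthest apart in both comparisons, had no exact match in its window.

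**Figure D3:**
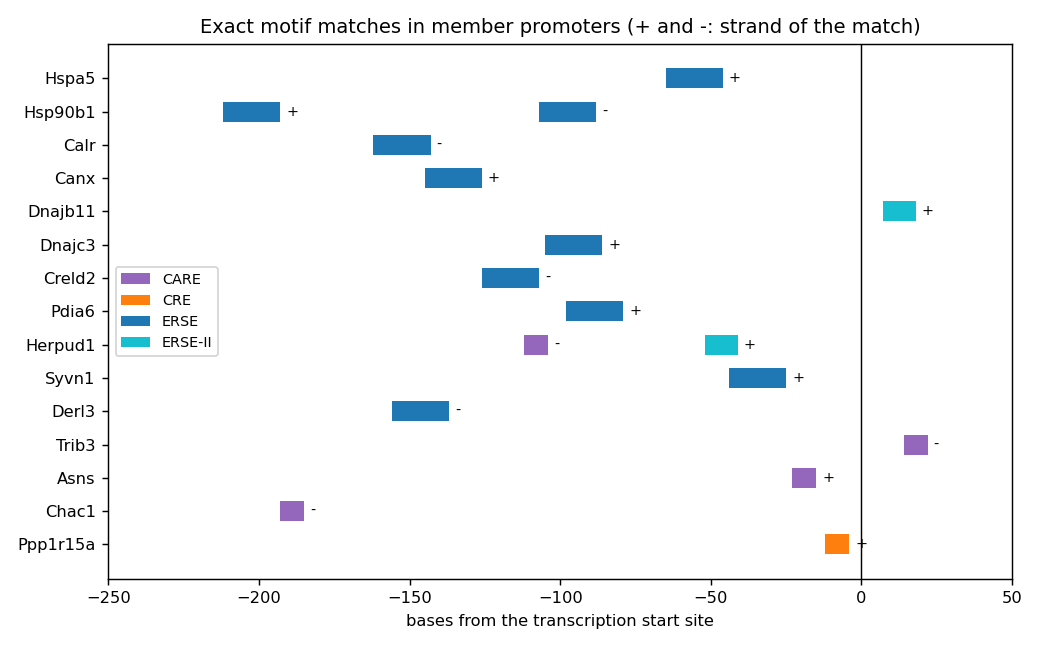
Position of exact motif matches relative to the transcription start (horizontal axis, in bases, 0 being the first transcribed base) in the promoter windows of the 15 members that held one, coloured by motif, with the strand of the match beside it. ERSE matches lie between 212 and 26 bases before the start.

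The promoters of 5 genes show these elements beside the values above: Hspa5 and Pdia6, folding genes with an ERSE; Derl3, the ERSE gene that went the opposite way in the Rag2 comparison; Asns, with the ATF4-type element; and Sdf2l1, without any of the motifs. Each is written 5′ to 3′ in the direction of the gene, and capitals mark the fixed letters of the motif. The windows are chr2:34771840-34772139 (plus strand) for Hspa5, chr12:17266339-17266638 (plus) for Pdia6, chr10:75893148-75893447 (plus) for Derl3, chr6:7693160-7693459 (minus) for Asns and chr16:17132334-17132633 (minus) for Sdf2l1.
Hspa5: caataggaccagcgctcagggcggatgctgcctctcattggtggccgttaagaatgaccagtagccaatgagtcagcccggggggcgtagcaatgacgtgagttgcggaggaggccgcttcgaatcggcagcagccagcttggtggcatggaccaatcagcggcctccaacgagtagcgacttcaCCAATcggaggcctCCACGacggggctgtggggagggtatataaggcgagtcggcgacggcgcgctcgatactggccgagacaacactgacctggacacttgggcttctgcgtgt
Pdia6: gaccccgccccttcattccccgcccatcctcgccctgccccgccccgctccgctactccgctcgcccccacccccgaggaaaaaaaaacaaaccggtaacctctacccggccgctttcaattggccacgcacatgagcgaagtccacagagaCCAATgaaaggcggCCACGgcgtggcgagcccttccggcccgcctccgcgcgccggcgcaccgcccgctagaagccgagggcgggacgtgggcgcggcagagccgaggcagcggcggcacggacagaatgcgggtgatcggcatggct
Derl3: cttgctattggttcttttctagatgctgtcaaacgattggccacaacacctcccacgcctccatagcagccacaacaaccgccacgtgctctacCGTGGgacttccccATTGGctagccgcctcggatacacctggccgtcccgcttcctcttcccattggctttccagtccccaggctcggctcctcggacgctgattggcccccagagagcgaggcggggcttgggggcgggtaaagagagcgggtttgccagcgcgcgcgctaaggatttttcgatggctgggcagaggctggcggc
Asns: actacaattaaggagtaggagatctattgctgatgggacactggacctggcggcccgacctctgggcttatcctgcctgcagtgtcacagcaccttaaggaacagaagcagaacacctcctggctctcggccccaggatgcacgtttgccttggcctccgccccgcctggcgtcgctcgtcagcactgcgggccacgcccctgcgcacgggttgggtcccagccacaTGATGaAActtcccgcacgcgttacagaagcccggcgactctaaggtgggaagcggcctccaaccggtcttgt
Sdf2l1: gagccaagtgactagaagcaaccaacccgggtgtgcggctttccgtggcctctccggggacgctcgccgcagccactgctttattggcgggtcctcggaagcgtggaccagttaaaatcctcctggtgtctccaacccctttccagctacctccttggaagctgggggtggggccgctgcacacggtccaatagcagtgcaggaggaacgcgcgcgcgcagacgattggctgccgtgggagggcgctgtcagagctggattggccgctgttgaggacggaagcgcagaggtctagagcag

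Genes of ER-associated degradation, which export misfolded proteins for destruction, differed less than the folding genes, with 1 exception. Of the 7 members, 5 were higher in both libraries labelled as knockouts, where 32.5% of all genes compared in both were. The medians of the 7 were 0.34 in the IL-10 and 0.35 in the Rag2 comparison. Edem1, a lectin that picks misfolded glycoproteins, had 22.5 FPKM in wild-type BALB/c cells, 30.1 under the Rag2 label, 22.3 in wild-type C57BL/6J cells and 32.2 under the IL-10 label (log2 ratios of 0.51 for IL-10 and 0.41 for Rag2). Sel1l and Syvn1, the partner and the ubiquitin ligase of the HRD1 complex, had ratios of 0.38 and 0.35, and 0.08 and 0.43. Derl1 and Derl2, channel proteins, had 0.34 and 0.45, and 0.17 and 0.35. Herpud1, a scaffold of the same complex, had 113 FPKM in wild-type BALB/c cells, 97.9 under the Rag2 label, 103 in wild-type C57BL/6J cells and 111 under the IL-10 label (0.11 and -0.20).

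Derl3 (chromosome 10, 75893398 to 75895941), a derlin enriched in secretory cells such as plasma cells, was the exception. It had 4.98 FPKM in wild-type BALB/c cells, 0.274 under the Rag2 label, 2.23 in wild-type C57BL/6J cells and 8.44 under the IL-10 label, a 30.8-fold span. About 54, 3, 21 and 78 fragments stand behind these values. The log2 ratio of FPKM with nothing added was 1.92 in the IL-10 comparison, with a 95% counting interval of 1.24 to 2.72. In the Rag2 comparison it was -4.18, with an interval of -6.45 to -2.51.

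Markers of plasma cells and B cells moved with Derl3. Of the 12 listed, 11 were found, and 9 of the 11 were lowest in the Rag2-labelled library and 8 highest in the IL-10-labelled one. How many of all genes were lowest or highest there was not counted. Their summed FPKM was 499 in wild-type BALB/c cells, 89.6 under the Rag2 label, 287 in wild-type C57BL/6J cells and 524 under the IL-10 label. Most of the sum in the Rag2-labelled library was Sdc1 (78.04 FPKM), which epithelium expresses too. Igj, the joining chain of antibodies, had 428, 1.36, 237 and 395 FPKM in the same order, and Tnfrsf17, Pou2af1 and Fcrl5 were listed at 0 in the Rag2-labelled library, as was Fcrl5 in wild-type C57BL/6J cells. The part of these cells in the Derl3 values was not tested.

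**Figure D4:**
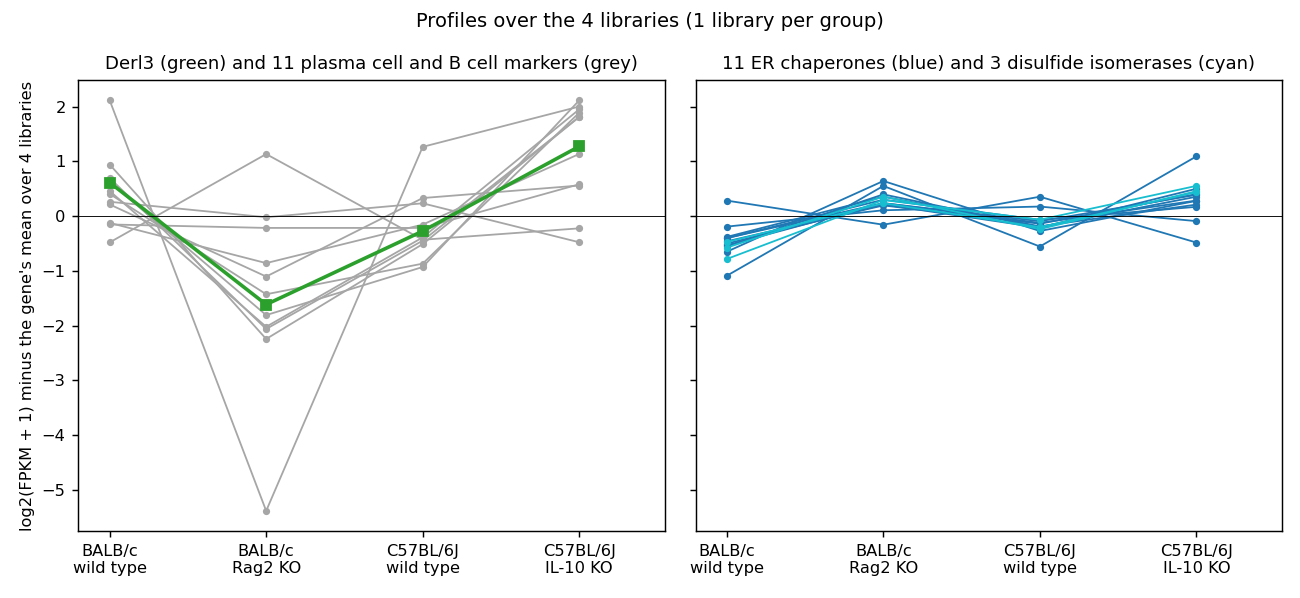
Left, log2 of FPKM plus 1 minus the gene's own mean over the 4 libraries for Derl3 (green) and the 11 plasma cell and B cell markers found (grey). Right, the same for the 11 chaperones (blue) and 3 isomerases (cyan). Derl3 and 9 of the 11 markers are lowest in the Rag2-labelled library, whereas 13 of the 14 folding genes are lowest in BALB/c wild type. Shares of all genes lowest in those libraries were not counted.

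The sensors and the transcription factors had medians near or below 0: 0.08 for IL-10 and -0.03 for Rag2 over the 3 sensors, and -0.05 and -0.23 over the 3 factors. Eif2ak3, which encodes PERK, lay between 14.6 and 16.9 FPKM in all 4 libraries, and Atf6 lay between 11.4 and 13.0 in all 4. Their log2 ratios were between -0.09 and 0.08 in both comparisons, with counting intervals that hold 0. Ern1, which encodes IRE1, had 10.3, 10.7, 9.80 and 18.2 FPKM in the same order: 3 libraries were alike and the IL-10-labelled one was higher (0.83). In that library Ptprc, which encodes CD45, had 43.1 FPKM against 3.34 in C57BL/6J wild type, and its part in the Ern1 value was not tested.

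Atf4 (chromosome 15, 80255184 to 80257545), the central transcription factor of the integrated stress response, was lower in both libraries labelled as knockouts. It had 527 FPKM in wild-type BALB/c cells, 451 under the Rag2 label, 641 in wild-type C57BL/6J cells and 471 under the IL-10 label (log2 ratios of -0.44 for IL-10 and -0.23 for Rag2). Its activity is set mainly by translation, which mRNA levels do not show. Xbp1, which drives secretory capacity once its mRNA is spliced, had 144, 189, 210 and 203 FPKM in the same order (-0.05 and 0.39), and whole-gene FPKM do not separate the spliced form. Ddit3, which encodes CHOP, a factor of prolonged stress, had 65.3, 53.7, 62.1 and 60.9 FPKM (-0.03 and -0.28).

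The targets of ATF4 and CHOP did not move together. Ppp1r15a, abundant in every library, followed Atf4: it had 972 FPKM in wild-type BALB/c cells, 813 under the Rag2 label, 1108 in wild-type C57BL/6J cells and 839 under the IL-10 label (log2 ratios of -0.40 for IL-10 and -0.26 for Rag2). Psat1 and Asns, genes of amino acid synthesis, went the other way. Psat1 (chromosome 19, 15905123 to 15925059), which makes phosphoserine, had 1.79, 9.76, 2.91 and 7.79 FPKM in the same order, with log2 ratios of 1.17 and 1.95. Here too the wild types lay below the knockout-labelled libraries, and the share of all genes in that order was not counted. The log2 ratio of the FPKM with nothing added was 1.42 for IL-10, with a counting interval of 0.96 to 1.88 from about 57 and 146 fragments. For Rag2 it was 2.45, with an interval of 1.95 to 2.97 from about 40 and 212 fragments.

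Asns (chromosome 6, 7675165 to 7693209), asparagine synthetase, had 2.74 FPKM in wild-type BALB/c cells, 8.40 under the Rag2 label, 2.99 in wild-type C57BL/6J cells and 5.96 under the IL-10 label (log2 ratios of 0.80 for IL-10 and 1.33 for Rag2). Phgdh, which feeds Psat1, had 0.784, 1.80, 2.06 and 2.65 FPKM in the same order, so BALB/c wild type stood apart and the others were close. Trib3 had the same shape, with 0.761, 2.01, 2.73 and 3.10 FPKM, and only about 14 fragments behind the lowest value. In the IL-10 comparison the counting intervals of the FPKM ratio hold 0 for Phgdh (-0.38 to 1.10), Trib3 (-0.45 to 0.81) and Chac1 (-0.15 to 2.56). Sesn2, a stress-induced inhibitor of the growth kinase mTORC1, lay between 12.1 and 14.1 FPKM in all 4 libraries.

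Counted together, 3 of the 34 members were at least 2-fold higher in the IL-10 comparison (Sdf2l1, Derl3 and Psat1) and 0 lower, where 10.1% of all genes compared were higher and 3.82% lower. In the Rag2 comparison 5 were higher (Psat1, Sdf2l1, Asns, Hyou1 and Pdia6) and 1 lower (Derl3), where 4.42% were higher and 2.03% lower. At 1.5-fold the members higher and lower numbered 9 and 1 in the IL-10 comparison and 16 and 1 in the Rag2 comparison, beside 16.5% and 10.9% of all genes in the first and 10.3% and 7.65% in the second, and 7 were higher in both and 0 lower in both, where 6.49% and 3.4% of genes compared in both were. At 2-fold, Sdf2l1 and Psat1 were higher in both, where 3.3% of genes were. The median over all members was 0.39 in the IL-10 and 0.51 in the Rag2 comparison. These counts depend on scaling: with small RNA rows left out of the library sums, 5 and 10 members were at least 1.5-fold higher, and the median of all genes shifted by -0.13 in each comparison. The shares of all genes past 1.5-fold were not computed with those rows left out.

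The knockout comparisons share no library, and across genes their ratios went together. Over the 34 members Pearson's r was 0.296 and Spearman's rho 0.638. Without Derl3, the member that differed most between the comparisons, they were 0.814 and 0.781, values that rest on that choice. Over the 12048 genes compared in both, with none left out, they were 0.557 and 0.479. Genes are not independent replicates, and these values only describe 4 libraries. Of the 34 members 23 were above 0 and 4 below 0 in both comparisons, where 32.5% and 34.3% of all genes were.

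Folding genes were further apart in the Rag2 than in the IL-10 comparison. The Rag2 ratio was the larger for 13 of the 14, and subtracting it from the IL-10 ratio gave a median of -0.31 over these 14 and of -0.22 over all 34 members, against -0.03 over all genes compared in both. Derl3 alone of the 34 members differed by at least 2-fold between the comparisons (3.78), where 5.9% of genes differed by that size in that direction and 2.29% in the other. The folding genes had their lowest summed level in BALB/c wild type, the library subtracted in the Rag2 ratio. A low level there raises that ratio by construction, so it is no separate observation. The summed FPKM of the 14 genes was 2222 in wild-type BALB/c cells, 3202 under the Rag2 label, 2816 in wild-type C57BL/6J cells and 3134 under the IL-10 label, so the knockout-labelled libraries were closer to each other than the wild types were.

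Between the wild types, all 14 folding genes were lower in BALB/c than in C57BL/6J, by a median of -0.34, where the median of all 12290 genes was 0.00. This comparison uses the same wild type libraries as the others and is no independent check of them. The ratios lay between -0.07 for Dnajb9 and -0.72 for Pdia6, and Xbp1 had -0.54. Of the 33 members compared, 1 was at least 2-fold lower (Trib3, -1.08) and 0 higher, where 2.17% of genes were lower and 1.81% higher. At 1.5-fold 3 were lower (Trib3, Phgdh at -0.78, and Pdia6) and 1 higher (Derl3, 0.89), where 6.37% of genes were lower and 5.9% higher. The degradation genes other than Derl3 lay between -0.19 and 0.13.

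Of the remaining marker lists, 13 of 14 macrophage and neutrophil genes were found, with medians of 3.24 in the IL-10 and 1.13 in the Rag2 comparison and S100a8 at 3.81, 75.1, 0.621 and 1624 FPKM in the same order of libraries and S100a9 at 6.45, 120.8, 3.27 and 1833. T cell markers had medians of 2.74 and -0.76, and endothelial markers -0.32 and -0.08. Of the 8 glial and neuronal markers 3 were compared, and 2 for IL-10 and 3 for Rag2 were below 0. Smooth muscle and pericyte markers were lower in both, with medians of -1.06 and -0.80, among them Tagln at 232, 101, 213 and 87.1 FPKM. Acta2 had ratios of -1.09 and -0.68, the glial gene Gfap -0.56 and -0.76, and the endothelial genes Pecam1 and Ccl21a 0.49 and -0.0043, and -0.44 and -0.78. Of the T cell list, Cd2 had 3.06 and -2.14, and Thy1, which fibroblasts express too, 0.59 and 0.73. The 15 fibroblast markers, which include sort marker Pdpn, summed to between 15432 and 17650 FPKM, with medians of 0.17 and -0.05.

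Other genes of these pathways, from lists that hold no member, had lower medians than the members as a whole. Among 32 genes of ER translocation and the early secretory path, 31 were compared; 3 were at least 1.5-fold higher and 1 lower in the IL-10 comparison, and 9 higher and 0 lower in the Rag2 comparison, with medians of 0.14 and 0.41. Of all genes 16.5% were higher and 10.9% lower at that fold in the first, and 10.3% and 7.65% in the second. Spcs3, a subunit of the signal peptidase, had 14.6 FPKM in wild-type BALB/c cells, 27.1 under the Rag2 label, 15.3 in wild-type C57BL/6J cells and 26.1 under the IL-10 label (log2 ratios of 0.74 for IL-10 and 0.84 for Rag2). Sec61b, part of the channel through which proteins enter the ER, had ratios of 0.31 and 0.998, and Rpn1, a subunit of the oligosaccharide transferase, 0.35 and 0.83. Sec11c, another signal peptidase subunit, was higher in the IL-10 comparison alone (1.18 and 0.05). Kdelr3, a receptor that returns escaped ER proteins, had 28.01, 38.2, 65.2 and 41.2 FPKM in the same order, so C57BL/6J wild type stood apart (-0.65 and 0.43).

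The other 26 ER folding genes had medians of 0.16 in the IL-10 and 0.14 in the Rag2 comparison, with 2 and 4 of the 24 compared at least 1.5-fold higher and 1 and 0 lower. Among all genes 16.5% and 10.3% were higher at that fold and 10.9% and 7.65% lower. The isomerase gene Pdia5 had ratios of 0.52 and 0.90, and the prolyl isomerase gene Fkbp2 had 0.21 and 0.78. Cnpy3, a cochaperone of Toll-like receptors, had 0.23 and 0.65. Ero1lb, an oxidase that recharges isomerases, had 0.96 and -0.08, Serp1 0.59 and 0.28, and the peroxiredoxin gene Prdx4 was lower in both (-0.66 and -0.30). The other degradation genes had medians of 0.17 and 0.06 over 20 genes. At 1.5-fold 1 was higher in each, beside 16.5% and 10.3% of all genes. These were Edem2 in the IL-10 comparison (0.68) and the ubiquitin-conjugating enzyme gene Ube2g2 in the Rag2 comparison (0.62). Nploc4, a Vcp adaptor, had 0.26 and 0.39, Aup1, a lipid droplet and degradation factor, 0.34 and 0.05, and the ubiquitin-conjugating enzyme gene Ube2j1 0.39 and -0.20. For Vcp, the ATPase that pulls proteins out of the ER, the ratios were 0.25 and 0.52.

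**Figure D5:**
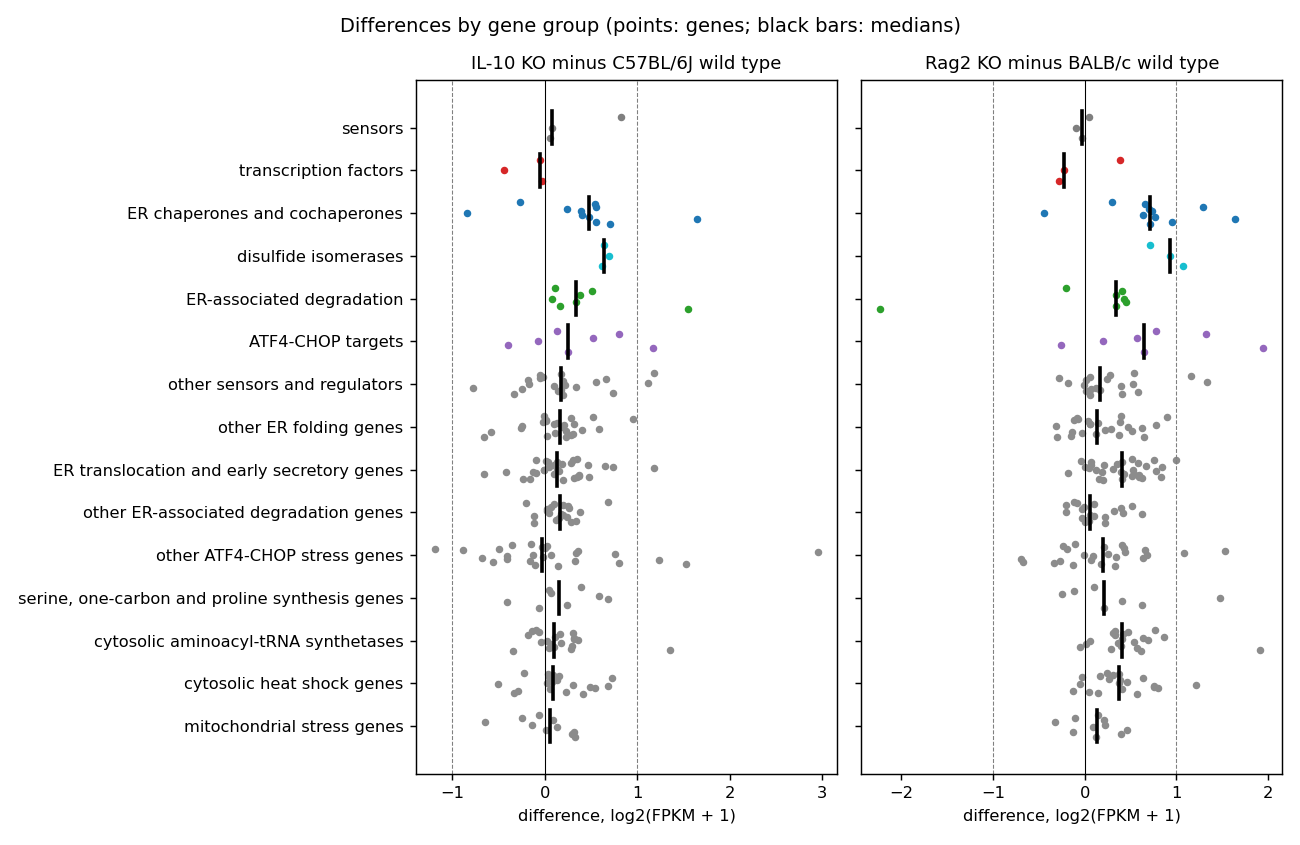
Log2 ratios of single genes (points) in the IL-10 comparison (left) and the Rag2 comparison (right), by gene group, with black bars at the medians, dashed lines at 2-fold and the members' groups in colour. Medians of the chaperones were 0.48 and 0.71 and of the isomerases 0.64 and 0.93, and those of the other groups in grey lay between -0.03 and 0.41.

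Of 22 other sensors and regulators, 21 were compared in the IL-10 and 19 in the Rag2 comparison, with a median of 0.17 in each. Eif2ak2, which encodes PKR, the double-stranded RNA sensor that phosphorylates eIF2 and is itself induced by interferon, was at least 2-fold higher in both comparisons. It had 3.80 FPKM in wild-type BALB/c cells, 11.1 under the Rag2 label, 4.497 in wild-type C57BL/6J cells and 10.9 under the IL-10 label (log2 ratios of 1.11 for IL-10 and 1.34 for Rag2). The kinase genes Eif2ak1 and Eif2ak4, named after their values were seen, had 0.56 and 0.02, and -0.17 and -0.18. Creb3l1, an ER-bound factor that promotes collagen secretion, had 21.7, 49.97, 44.3 and 43.8 FPKM, so BALB/c wild type stood apart (-0.02 and 1.17). Tmbim6, an ER calcium channel regulator, was higher in both (0.74 and 0.58), and Eif2b3, a subunit of the eIF2 exchange factor, was lower in the IL-10 comparison (-0.78 and 0.12).

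The other ATF4 and CHOP stress genes went both ways. Over 26 and 24 genes compared, medians were -0.03 in the IL-10 and 0.20 in the Rag2 comparison. At 1.5-fold 5 were higher and 3 lower in the first, where 16.5% of all genes were higher and 10.9% lower. In the second 5 were higher and 2 lower, where 10.3% and 7.65% of all genes were. Slc7a11, which imports cystine for glutathione, had 0.389 FPKM in wild-type BALB/c cells, 1.95 under the Rag2 label, 0.215 in wild-type C57BL/6J cells and 8.43 under the IL-10 label (2.96 and 1.09). Tnfrsf10b, a death receptor gene induced by CHOP, was higher in the IL-10 comparison (1.52 and 0.18), and the arginine transporter gene Slc7a1 was higher in both (0.76 and 0.68). Gadd45a, a growth arrest gene, was lower in both (-0.67 and -0.69).

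A pair of genes for secreted proteins in this list had opposite signs in the comparisons. Gdf15, a secreted stress cytokine, had 34.1 FPKM in wild-type BALB/c cells, 54.4 under the Rag2 label, 44.5 in wild-type C57BL/6J cells and 19.02 under the IL-10 label (log2 ratios of -1.18 for IL-10 and 0.66 for Rag2). Stc2, a secreted glycoprotein, had 5.44, 17.6, 20.5 and 10.7 FPKM (-0.88 and 1.53), with BALB/c wild type lowest and C57BL/6J wild type highest.

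Genes that charge tRNAs with amino acids were higher mainly in the Rag2 comparison. Of the 20 cytosolic aminoacyl-tRNA synthetase genes, 19 were above 0 in the Rag2 comparison with a median of 0.41 and 6 at least 1.5-fold higher, and 14 in the IL-10 comparison with a median of 0.11 and 1 higher. At that fold 10.3% of all genes were higher in the Rag2 and 16.5% in the IL-10 comparison. Wars, the tryptophan enzyme, which interferon induces, had 12.8 FPKM in wild-type BALB/c cells, 51.01 under the Rag2 label, 12.7 in wild-type C57BL/6J cells and 34.2 under the IL-10 label (log2 ratios of 1.36 for IL-10 and 1.92 for Rag2). Gars, Aars and Kars had 0.87, 0.77 and 0.70 in the Rag2 comparison and 0.11, -0.10 and 0.36 in the IL-10 comparison, and Yars had 0.61 and -0.34. In the list of serine, one-carbon and proline synthesis Mthfd2, the mitochondrial folate enzyme, had 2.15, 7.75, 3.50 and 5.75 FPKM (log2 ratios of 0.59 for IL-10 and 1.47 for Rag2) and Aldh18a1 had -0.40 and 0.63. At 1.5-fold, 2 of the 8 genes compared for IL-10 and 2 of the 7 compared for Rag2 were higher and 0 lower. Among all genes 16.5% and 10.3% were higher and 10.9% and 7.65% lower.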

How the data were processed

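Messenger RNA of sorted stromal cells was measured in 4 libraries, 1 per group. Per the labels, a miRNeasy kit gave the RNA and a stranded TruSeq mRNA kit the libraries. The deposited values are FPKM per gene symbol, computed by the authors. Tools listed in the submitters' processing notes are Cuffdiff 2.2.1, TopHat2 2.1.1, SAMtools 0.1.18 and Bowtie2 2.2.8, with genome mm10. For the annotation, strand setting and library normalization the sources used here give nothing.

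From these files log2 of FPKM plus a pseudocount of 1 was computed (Python 3.11.15, pandas 2.3.3), and genes with at least 1 FPKM in either library were compared. Calls were an absolute log2 ratio of at least 1 (2-fold) or 0.58 (1.5-fold). With 1 library per group no test was possible. Low FPKM step by whole fragments, so depth was estimated from genes with a single RefSeq-linked transcript in GENCODE M21, with 75% to 78.1% of low values within 0.1 of a whole fragment at a length offset of 220 nt. Counting intervals (95%, exact binomial on rounded fragments, median length of such transcripts) cover counting error only, since PCR copies are not independent molecules. The counting was tested on simulated data.

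All 34 members were named. Of each other pathway list, up to 3 genes per knockout comparison with at least 5 FPKM in the higher library and the largest absolute ratio were named, and of each marker list the 2 with the highest mean. Il10, Rag2, Gapdh, Igj and Ptprc served as checks. Some genes that this rule names are not reported here. The members and lists were chosen with earlier results of these data known. Motif positions were searched on both strands of RefSeq promoter windows, and positions were taken from RefSeq GRCm38.p6. Other pseudocounts, filters and scalings were tried as alternatives.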

Additional observations from a re-analysis of the deposited data

How the results depend on the processing

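No paired analysis was possible because each group has 1 library and the labels give no replicate numbers, and for the same reason no library could be left out. Results were recomputed with pseudocounts of 0.1 and 5, without a filter, with a filter of 5 FPKM, with libraries scaled by their median ratio, and with library sums rescaled without small RNAs. No value at least 2-fold apart changed sign under any of these 6 alternatives, and none of the 14 folding genes changed sign in any comparison. Signs changed for Atf6, Eif2ak3, Herpud1 and Syvn1 in the IL-10 comparison, for Ern1 in the Rag2 comparison and for Eif2ak3 between the wild types.

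Shares of all genes past each fold were not recomputed under the alternatives, so the member counts below have no such share beside them. With a pseudocount of 0.1, 8 members were at least 2-fold higher in the Rag2 comparison, and 1 was higher and 2 lower between the wild types. With a pseudocount of 5, 1 member was at least 2-fold higher in the IL-10 comparison and 0 lower in the Rag2 comparison, whose median was 0.37, and between the wild types 0 passed 2-fold downward, and at 1.5-fold 0 were higher and 1 lower. With the filter of 5 FPKM, which removes low genes such as Trib3 and, outside the IL-10 comparison, Derl3, 0 members were lower in the Rag2 comparison at either fold, and between the wild types 0 passed 2-fold downward, and at 1.5-fold 0 were higher and 1 lower. Rescaled without small RNAs, which held between 8.82% and 14.8% of a library's FPKM, 5 members were at least 1.5-fold higher in the IL-10 and 10 in the Rag2 comparison, and the medians were 0.25 and 0.41. Relative to the median of all genes under that scaling they were 0.38 and 0.54, against 0.39 and 0.51 as deposited. Scaling by the median ratio and removing the filter moved no count past 1.5 times and no median by more than 0.1. Depth limits the low members: Chac1 rests on about 6 to 17 fragments, Trib3 on 14 to 47, Phgdh on 13 to 37 and Derl3 on 3 to 78.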

Other observations

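Stress genes outside the ER were described by lists of their own. A list of 20 heat shock genes, mainly cytosolic, includes mitochondrial chaperonin genes too. Its medians were 0.09 for IL-10 and 0.37 for Rag2, with 2 and 5 genes at least 1.5-fold higher and 0 lower. Of all genes, 16.5% and 10.3% were higher at that fold and 10.9% and 7.65% lower. Hsph1, a nucleotide exchange factor, had 156 FPKM in wild-type BALB/c cells, 243 under the Rag2 label, 94.9 in wild-type C57BL/6J cells and 157.5 under the IL-10 label (log2 ratios of 0.72 for IL-10 and 0.64 for Rag2). The small heat shock gene Hspb8 was higher in both (0.68 and 0.76), as was the mitochondrial chaperonin gene Hspd1 (0.54 and 0.80), whereas Hspb1 had 0.30 and 1.21. Between the wild types this group had a median of 0.15, opposite in sign to the -0.34 of the ER folding genes.

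The 10 mitochondrial stress genes had medians of 0.05 and 0.13, and 0 were at least 1.5-fold higher, where 16.5% and 10.3% of all genes were. Clpx, part of a mitochondrial protease, was lower in both (-0.65 and -0.33). Htra2, Timm17a, Yme1l1 and Ubl5 lay between -0.13 and 0.46. Hspa8, a constitutive cytosolic chaperone gene named after its values were seen, split by strain: it had 119.8 and 148 FPKM in the BALB/c libraries and 384 and 408 in the C57BL/6J libraries, a log2 ratio of -1.67 between the wild types.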
